A study of Sus scrofa with 12 samples.

Results

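Excitation contraction coupling is the chain of events by which an electrical signal at the surface of a muscle fiber releases calcium inside it and makes it contract. A voltage sensor in the transverse tubule opens a release channel in the membrane of the sarcoplasmic reticulum, calcium stored there on a binding protein flows out, and a pump returns it so that the fiber relaxes. Fast fibers, which prevail in the longissimus dorsi, use isoforms of several of these proteins that slow fibers and the heart use less, and they also hold a soluble calcium buffer. The 10 genes described here were chosen by these roles, with earlier results of these data known. They are CACNA1S, CACNG1 and STAC3 of the voltage sensor, RYR1, TRDN and JPH1 of the release channel and its junction, CASQ1 of the calcium store, ATP2A1 and SLN of the pump, and PVALB, the buffer. Their regions were the intervals of the deposited peak table whose midpoint lay in the gene body on Sscrofa11.1 or within 10 kb of it. This took 543 of the 217213 intervals, and they formed 358 of the 140081 regions left after overlapping or adjoining intervals called in both breeds were merged and represented by the longest. The windows of the 10 genes did not overlap each other.

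ATAC-seq, which cuts open chromatin with a transposase and sequences the fragments, was carried out on longissimus dorsi from 3 boars of the Duroc breed and 3 of the Luchuan breed. Duroc is a lean breed and Luchuan a Chinese breed of the fat type. All boars were 180 days old, had been kept alike and were fasted overnight before death, and no treatment is named. The tissue was whole muscle, so nuclei of every cell type in it were read together. Another 6 libraries of mRNA from these breeds were not analysed here, and the reads had been aligned to Sscrofa11.1, an assembly of a Duroc pig.

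The table holds 1 read count per breed for each interval and none per boar, so no value below has a standard deviation, no test between animals was possible, and every difference lacks a replicate check. All regions together held 20760304 Duroc and 13746420 Luchuan reads. To compare the breeds, Luchuan reads were multiplied by 1.48, which sets the median ratio of the regions called in both breeds to 1. A log2 ratio below 0 is a higher scaled value in Duroc. The intervals given with ratios, on this log2 scale or as folds, come from 95% Clopper-Pearson limits on the share of reads that were Luchuan, and they cover counting error only. Regions with fewer than 20 reads in both breeds together were left out of counts and medians, which removed 1 of the 358, in TRDN.

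The 10 genes lay in open chromatin in both breeds. Per kb of gene body and flanks, the Duroc counts ran from 32.5 reads at PVALB to 192 at CASQ1, and the scaled Luchuan counts from 19.7 to 145 at the same genes. The median of the 15822 protein-coding genes with at least 100 reads was 19.98 Duroc reads per kb. Regions were also dense there, with a median of 3.66 per 10 kb over the 10 genes against 1.06 over all genes. PVALB was the exception with 1.51 regions per 10 kb, a density that 29.6% of genes exceeded. At each of the other 9 genes, between 0.0506% (SLN) and 3.77% (STAC3) of genes were denser.

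**Figure D1:**
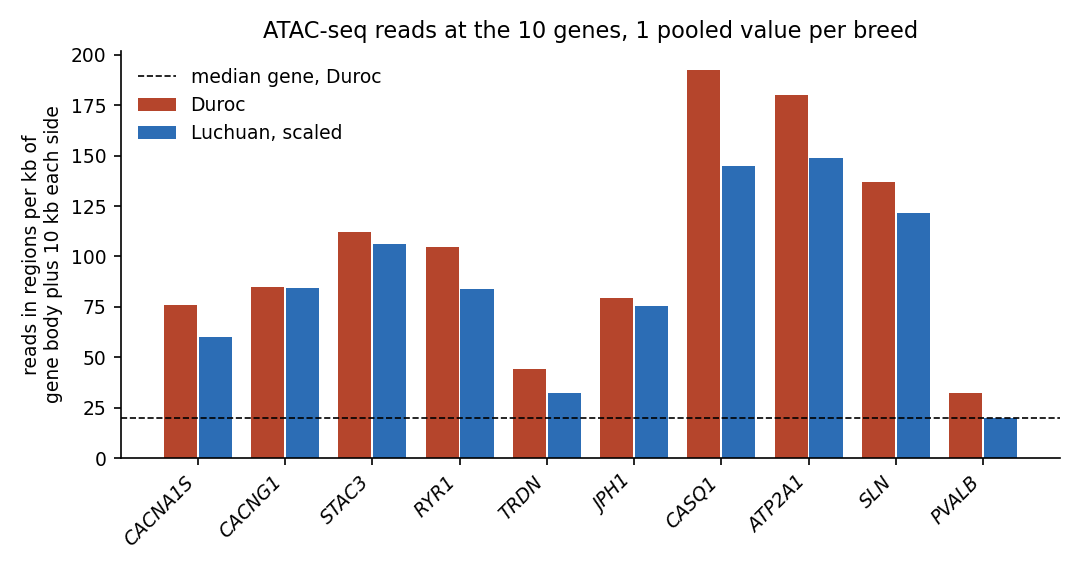
Bars show ATAC-seq reads in regions per kb of gene body plus 10 kb on each side, for Duroc (red) and for Luchuan after scaling (blue), with 1 pooled value per breed and no error bar. CASQ1 and ATP2A1 had the most reads per kb, with 192 and 180 in Duroc, PVALB the fewest, and the dashed line is the Duroc value of the median gene, 19.98.

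Chromatin at most of these genes was more accessible in Duroc than in Luchuan. The log2 ratio of the summed reads was below 0 for 10 of 10 genes, against 52.4% of all genes with at least 100 reads. Its counting interval lay wholly below 0 for 8 of 10, against 26.6%. Intervals narrow as reads rise, and the 10 genes had a median of 9594.5 reads against 1813.5 over all genes. Among genes with at least 1000 reads the share was 29.2%. The median ratio over the 10 genes was -0.30, and the median over all genes was -0.012. Without regions inside other genes the median was -0.14 over 9 genes, since PVALB had no region left, and STAC3 was then above 0. The differences were small. They exceeded 1.5-fold at 1 gene, PVALB, against 2.64% of all genes that were higher in Duroc by this much. For CACNG1 and STAC3 the intervals included 0, and their direction turned under some of the alternative settings.

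The defining markers of skeletal muscle moved with these genes. Of 8 such genes, 7 had log2 ratios below 0, from -0.46 at CKM, muscle creatine kinase, to -0.039 at DES, which encodes desmin, and the median was -0.23. TTN, the titin gene, was at 0.036 and held so many reads that the list as a whole was at -0.14 (-0.15 to -0.12). The muscle genes had 120 to 224 Duroc and 93.6 to 190 scaled Luchuan reads per kb. A list of 5 endothelial genes had at most 7.39 Duroc reads per kb and a summed log2 ratio of 0.076 (-0.072 to 0.22), and 5 fibroblast genes had at most 11.5 and a ratio of 0.036 (-0.081 to 0.15), with no region at LUM. PECAM1 held 559 of the Duroc reads of the endothelial list at -0.13, while TEK and KDR, with 76 and 62 Duroc reads, were at 0.79 (0.33 to 1.25) and 0.74 (0.23 to 1.26). Among 4 adipocyte genes the range was 3.55 to 56.1 with a summed ratio of 0.029 (-0.068 to 0.13), and among 4 leukocyte genes it was 0.380 to 106 with -0.078 (-0.16 to 0.0074). CIDEC and CD68 held most reads of these lists, and single members with fewer reads lay far to either side, such as LEP at -0.93, PTPRC at -1.07 and CD3E at 1.24. The 2 satellite cell genes together were at -0.058 (-0.12 to 0.0064), but they differed, with PAX7 at -0.21 (-0.31 to -0.12) and MYF5 at 0.083 (-0.005 to 0.17). The 2 Schwann cell genes were at -0.29 (-0.43 to -0.15), and 4 genes of other organs, with at most 3.39 Duroc reads per kb, at 0.46 (0.11 to 0.81). In libraries of whole muscle, fewer fiber nuclei and less open chromatin per nucleus cannot be told apart, and the part of cell composition in the differences at the 10 genes was not tested.

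**Figure D2:**
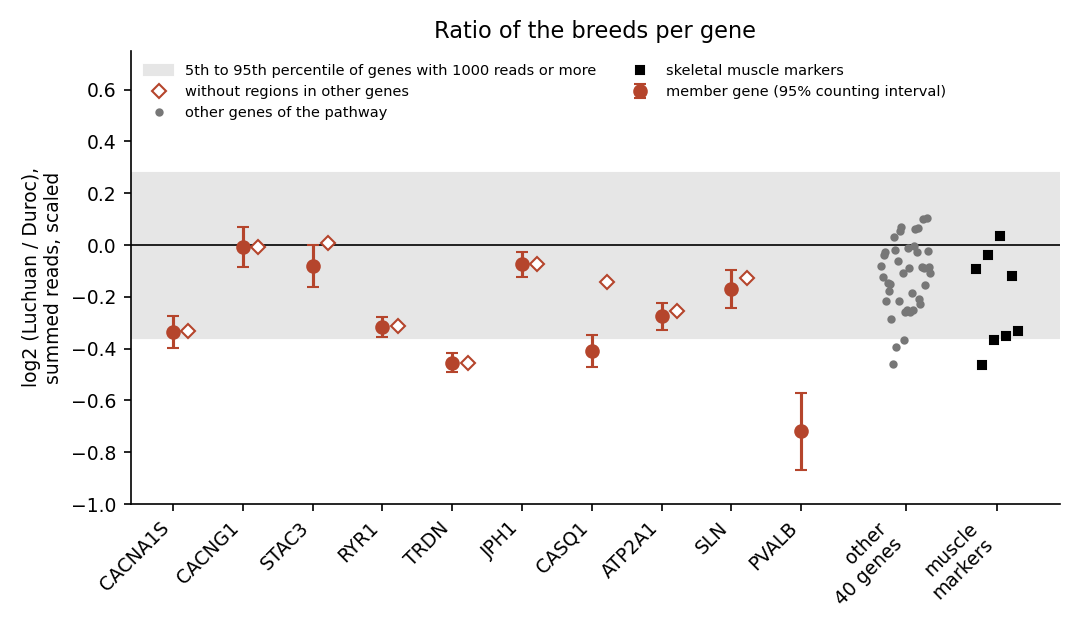
The log2 ratio of Luchuan to Duroc summed reads after scaling is plotted per gene, with 95% counting intervals on the 10 genes (red circles), the same without regions inside other genes (open diamonds), 40 other genes of the pathway (grey) and 8 skeletal muscle markers (black squares). The grey band spans the 5th to 95th percentile of the genes with at least 1000 reads, -0.36 to 0.28, and PVALB, TRDN and CASQ1 lie below it, CASQ1 only while the regions inside PEA15 are counted.

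Region by region, the lean towards Duroc was broad rather than large. Of the 357 regions with at least 20 reads, 321 had log2 ratios below 0, which is 89.9% against 51.7% of all regions. The counting interval lay below 0 for 153 of them, 42.9% against a background of 15.8%, and above 0 for 3, against 13.2%. In 34 regions the Duroc value was at least 2-fold higher, 9.52% against 5.63% of all regions. Peaks called in Duroc alone gave 29 of these, 18.5% of such member regions against 15.3% of all such peaks. Among the 159 regions called in both breeds it was 4, or 2.52% against 1.42%. In 0 regions was the Luchuan value 2-fold higher, against 6.71% of all regions. Of that background, 8412 of 9243 regions were peaks of Luchuan alone. Its share was 12.2% at 20 to 99 reads, 2.24% at 100 to 299 and 0.469% at 300 or more. TRDN gave 23 of the 34 that were higher in Duroc. Without TRDN the count was 11 of 196 regions, or 5.61%, which is near the background, whereas 165 of the 196, or 84.2%, were still below 0. The median of the 357 ratios was -0.42, and it was -0.26 without TRDN and -0.016 over all regions.

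**Figure D3:**
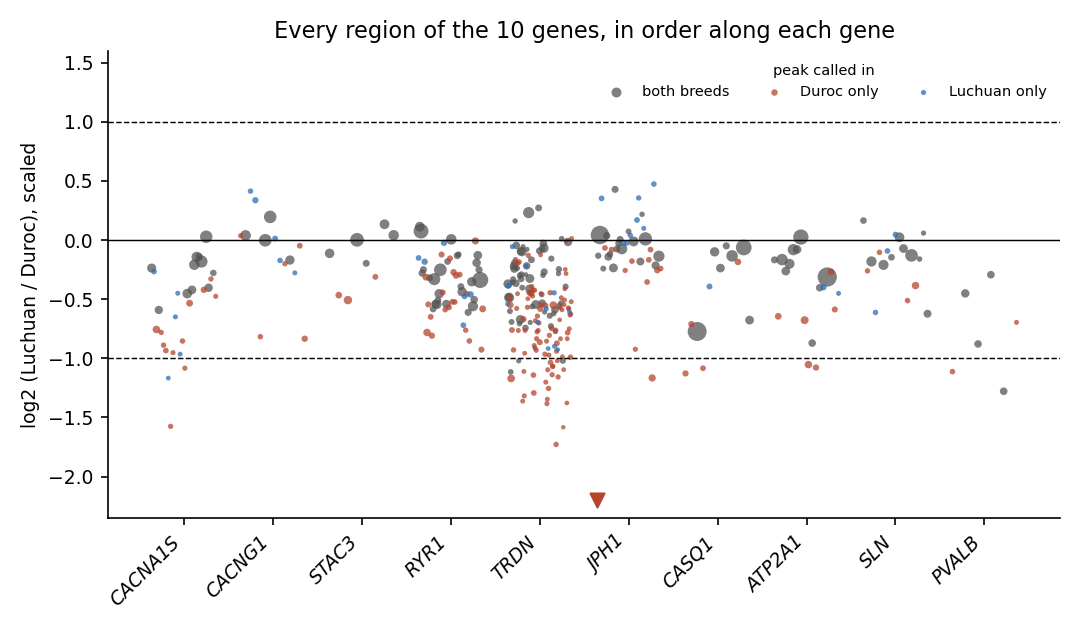
Each point is 1 of the 358 regions, in order along its gene, at its log2 ratio of Luchuan to Duroc, with larger points for more reads and colour for the breed in which the peak was called. Points fall mostly between -1 and 0 (dashed lines mark 2-fold), TRDN holds 23 of the 34 tested regions past 2-fold, and the triangle in JPH1 is a region with 74 Duroc and 0 Luchuan reads, drawn at the edge of the axis.

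CACNA1S encodes the pore-forming subunit of the voltage sensor, the dihydropyridine receptor, and lies on chromosome 10 from 23503701 to 23567797. Its 28 regions held 6395 Duroc and 3428 Luchuan reads, which after scaling was 1.26 times as many in Duroc (1.21 to 1.32). The ratio was below 0 in 27 of the 28 regions, and the interval lay below 0 in 18. The exception was the strongest region, which straddles the higher end of the gene from 23567561 to 23568509, with 753 Duroc and 519 Luchuan reads and a log2 ratio of 0.028 (-0.14 to 0.19). Over the lower end, 263 Duroc and 105 Luchuan reads fell between 23503452 and 23503793, a ratio of -0.76 (-1.101 to -0.43). The intervals of these 2 regions do not overlap, but the other regions within 2 kb of an end did not divide in this way. Near the higher end, the region starting at 23567277 was at -0.42 (-0.85 to -0.013). Those starting at 23568835 and 23569551 were at -0.40 (-0.68 to -0.13) and -0.33 (-0.95 to 0.25). Near the lower end, the region starting at 23503134 was at -0.27 (-0.82 to 0.26). Regions past 2-fold lay inside the gene and were weak. The region from 23526573 to 23526792 had 81 and 18 reads (-1.58, -2.43 to -0.86), the region from 23538207 to 23538407 had 70 and 22, and the region from 23524302 to 23524473 had 41 and 12. The last of them was listed as a peak of Luchuan alone although it had fewer Luchuan reads even after scaling.

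CACNG1, the gamma subunit of the same receptor, lies on chromosome 12 from 13462589 to 13481651 and hardly differed between the breeds. Its 14 regions held 3308 Duroc and 2226 Luchuan reads, a log2 ratio of -0.0072 (-0.086 to 0.071). The strongest region, from 13462675 to 13463450 at the lower end of the gene, had 788 and 532 reads, and its ratio was -0.0022 (-0.16 to 0.16). No region was past 2-fold. Of the 14, 8 were below 0 and 6 above, much as over all regions.

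STAC3, an adaptor protein that couples the voltage sensor to the release channel, lies on chromosome 5 from 22549008 to 22556330. In its 8 regions were 3067 Duroc and 1961 Luchuan reads, a log2 ratio of -0.081 (-0.16 to 0.0012). The ratios at both ends of the gene were near 0. The strongest region, from 22547939 to 22548935 beyond the lower end, had 941 and 637 reads (0.0016, -0.15 to 0.15), and the region from 22555945 to 22556484 across the higher end had 502 and 349 (0.040, -0.16 to 0.24). What lean there was came from 3 regions inside NDUFA4L2, the neighbouring gene. Without them the ratio of STAC3 was 0.0076 (-0.089 to 0.10).

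RYR1 encodes the calcium release channel, the ryanodine receptor of skeletal muscle, and variants of this gene cause malignant hyperthermia in pigs. It lies on chromosome 6 from 47339759 to 47458457. The 54 regions held 14521 Duroc and 7888 Luchuan reads, 1.25 times as many in Duroc after scaling (1.21 to 1.28). The lower end of the gene did not share the difference. The 2 regions within 2 kb of an end of the gene, both at the lower end, together held 1505 Duroc and 1080 Luchuan reads, a log2 ratio of 0.085 (-0.029 to 0.20). The 46 regions more than 2 kb inside held 10624 and 5528 reads, a ratio of -0.38 (-0.43 to -0.33). The interior was thus lower than the end by 0.46 on the log2 scale (interval of the difference, -0.59 to -0.34), against a median difference of -0.11 and quartiles of -0.31 and 0.075 over 5612 genes with at least 200 reads in each zone.

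Along RYR1 the individual regions kept to a narrow range, and none was past 2-fold. At the lower end the region from 47339445 to 47339843 had 413 reads in Duroc and 302 in Luchuan (0.11, -0.11 to 0.33), and the next, from 47340604 to 47341524, had 1092 and 778 (0.075, -0.059 to 0.21). Of all 54 regions, 51 were below 0 and 28 had intervals below 0, and the quartiles were -0.54 and -0.21. The strongest region of the window, from 47461373 to 47462947, lies inside MAP4K1, which adjoins RYR1 at its higher coordinate, and had 1443 and 772 reads (-0.34, -0.47 to -0.21). Leaving out the 5 regions inside MAP4K1 gave -0.31 (-0.35 to -0.27) for RYR1, where all of its regions gave -0.32.

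TRDN encodes triadin, which holds calsequestrin to the release channel. It is the longest of the 10 genes, 387 kb on chromosome 1 from 39180544 to 39567245, and it had 162 regions. These held 18035 Duroc and 8906 Luchuan reads, 1.37 times as many in Duroc after scaling (1.34 to 1.41). Among the 11724 genes with at least 1000 reads, 2.50% had a lower log2 ratio than the -0.45 of TRDN. The ratio was below 0 in 156 of the 161 regions with at least 20 reads, and 79 intervals lay below 0 against 1 above.

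Most of these 161 regions were weak, with a median of 72 Duroc and 30 Luchuan reads. Peaks of Duroc alone were 88 of them, and 44053 of all 137697 regions. Unlike RYR1, TRDN had no difference between end and interior that the counts could show. Its 7 regions within 2 kb of an end were at -0.51 (-0.65 to -0.36) and its 148 interior regions at -0.45 (-0.49 to -0.41), a difference of 0.059 (-0.090 to 0.21). In windows of 50 kb along the gene the ratio ran from -0.29 (-0.39 to -0.19) at 100 to 150 kb from the lower end to -0.71 (-0.84 to -0.57) at 250 to 300 kb, and every window's interval lay below 0. Both of these windows kept the direction of the whole gene, but their intervals do not overlap.

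Of the 161 regions of TRDN with at least 20 reads, 23 were past 2-fold in Duroc, or 14.3% against 5.63% of all regions. Peaks of Duroc alone gave 20 of these, 22.7% of such peaks in TRDN against 15.3% of all such peaks. With at least 50 reads, 22 regions of TRDN were past 2-fold, and all were higher in Duroc. The strongest, from 39183741 to 39184152, had 294 reads in Duroc and 88 in Luchuan (-1.17, -1.54 to -0.83), and its neighbour from 39183271 to 39183451 had 110 and 34. Towards the other end, the region from 39529707 to 39530283 had 142 and 47 reads (-1.02, -1.54 to -0.55). The region with the most reads ran the other way. It lies 108 kb inside the gene from 39287845 to 39288614, with 558 reads in Duroc and 443 in Luchuan, and its ratio was 0.23 (0.048 to 0.41). It was the only region of TRDN whose interval lay above 0. Across the lower end, 298 and 144 reads fell between 39180324 and 39180670 (-0.48, -0.78 to -0.19).

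**Figure D4:**
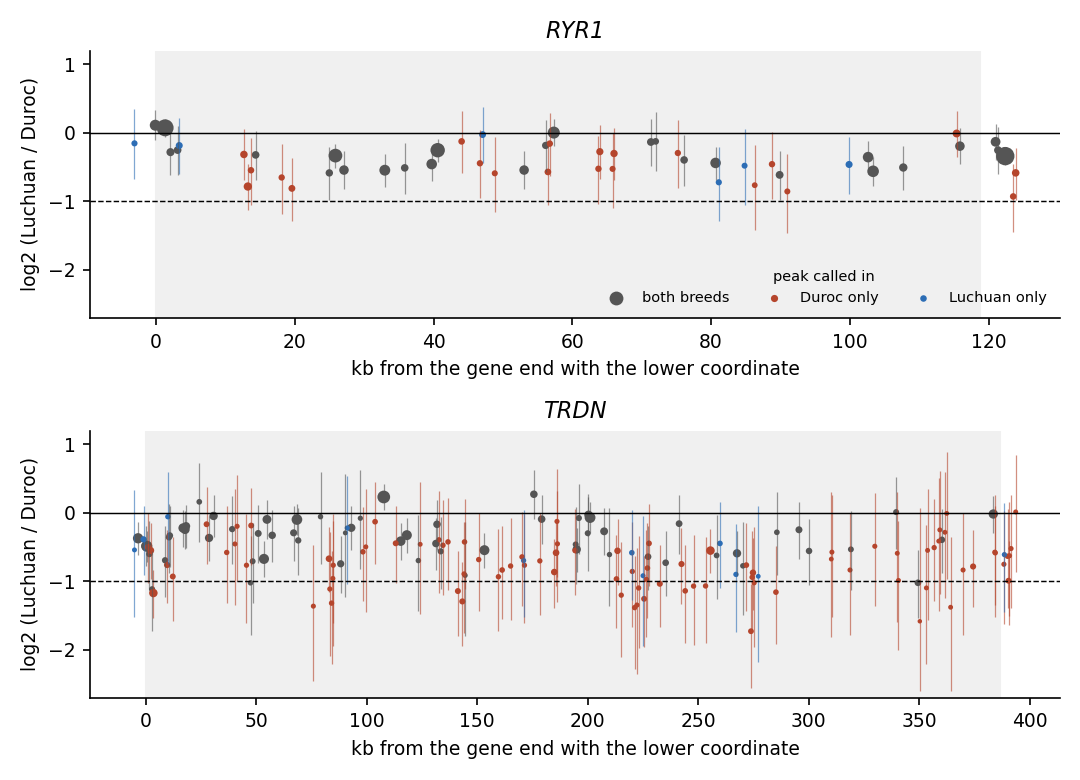
The log2 ratio of each region of RYR1 (top) and TRDN (bottom) is plotted against its distance in kb from the gene end with the lower coordinate, with 95% counting intervals as vertical lines, point size for reads and the gene body shaded. RYR1 is at 0.11 and 0.075 in the regions at its lower end and mostly below 0 elsewhere, with quartiles over the gene of -0.54 and -0.21, while TRDN is below 0 along its whole length apart from single regions.

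JPH1, junctophilin 1, ties the transverse tubule to the sarcoplasmic reticulum, and its gene lies on chromosome 4 from 61628304 to 61716550. As a whole it was nearly alike in the breeds, with 8591 Duroc and 5517 Luchuan reads in 39 regions and a ratio of 1.05 in favour of Duroc (1.02 to 1.09). The region over its lower end, from 61627769 to 61629530, held 1752 and 1220 reads and was at 0.042 (-0.065 to 0.15). Of all 39 regions, 26 were below 0 and 13 above, and 35 intervals included 0. Against this even background 2 regions were past 2-fold. The region from 61705029 to 61705478, inside the gene and 11.3 kb from its higher end, had 250 reads in Duroc and 75 in Luchuan (-1.17, -1.56 to -0.80). The region from 61621614 to 61621835, which is 6.58 kb beyond the lower end and in no protein-coding gene, held 74 reads in Duroc and 0 in Luchuan. The limit of its counting interval made it at least 13.2-fold higher in Duroc, and set against a floor of 3 Luchuan counts the fold was 16.7. Over the whole table, 10 of the 78730 regions with at least 50 Duroc reads had 0 Luchuan reads.

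CASQ1 encodes calsequestrin 1, which binds calcium inside the sarcoplasmic reticulum of fast fibers, and lies on chromosome 4 from 90276752 to 90288990. The 12 regions of its window held 6205 Duroc and 3161 Luchuan reads, a log2 ratio of -0.41 (-0.47 to -0.35), but this value rested on neighbouring genes. The strongest region, from 90273230 to 90275744, had 2265 reads in Duroc and 896 in Luchuan (-0.77, -0.89 to -0.66) and lies inside PEA15, as do 2 further regions, of which the one from 90272300 to 90272543 was past 2-fold with 153 and 47. A 4th region, 5.72 kb beyond the higher end, lies inside LOC100157711 and had 386 and 163. Without the 4 regions inside these 2 genes, CASQ1 was at -0.14 (-0.22 to -0.062). The region across its own higher end, from 90288754 to 90289782, had 1287 and 833 reads and was at -0.063 (-0.19 to 0.063). Inside CASQ1, the region from 90280395 to 90280561 was past 2-fold with 117 and 37 reads (-1.08, -1.67 to -0.55).

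ATP2A1 encodes SERCA1, the calcium pump of fast fibers, and lies on chromosome 3 from 18545064 to 18568312. Its 18 regions held 7789 Duroc and 4351 Luchuan reads, 1.21 times as many in Duroc after scaling (1.17 to 1.26). All but 1 of the regions were below 0. The exception was the region from 18551557 to 18552566 inside the gene, with 1180 and 812 reads (0.025, -0.11 to 0.16). Across the lower end, the region from 18544907 to 18545144 had 188 and 113 reads (-0.17, -0.52 to 0.17). Further on, the region from 18558437 to 18558795 had 271 and 88 reads (-1.05, -1.42 to -0.71), and the region from 18565733 to 18565892 had 154 and 49 (-1.08, -1.58 to -0.62). Both were peaks of Duroc alone, and they were the 2 regions of ATP2A1 past 2-fold. The strongest region of the window, from 18568272 to 18570073 at the higher end, has its midpoint in RABEP2 and had 2103 and 1145 reads (-0.31, -0.42 to -0.21). Leaving out the 4 regions inside RABEP2 gave -0.25 (-0.32 to -0.19) for ATP2A1.

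SLN encodes sarcolipin, a small membrane protein that inhibits this pump. The gene lies on chromosome 9 from 36232955 to 36242405 and had the densest regions of the 10, with 5.77 per 10 kb. Its 17 regions held 4035 Duroc and 2425 Luchuan reads, a ratio of 1.13 in favour of Duroc (1.07 to 1.18). No region was past 2-fold, and 14 of the 17 intervals included 0. The strongest region, from 36241985 to 36242884 over the higher end, had 814 and 503 reads and was at -0.13 (-0.29 to 0.032). Of the 3 intervals below 0, 2 belonged to regions inside SLC35F2, the neighbouring gene, with 236 and 122 reads from 36243147 to 36243462 (-0.38, -0.72 to -0.066) and 299 and 131 reads from 36251918 to 36252442 (-0.62, -0.93 to -0.33). Without the 4 regions inside SLC35F2 the log2 ratio of SLN moved from -0.17 to -0.13 (-0.21 to -0.047), and with its gene body alone it was -0.068.

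PVALB encodes parvalbumin, the soluble calcium buffer of fast fibers, on chromosome 5 from 10953559 to 10973300. Of the 10 genes it had the largest difference and the fewest reads, with 1290 Duroc and 530 Luchuan reads in 6 regions. After scaling this was 1.65 times as many in Duroc (1.49 to 1.82), and 0.503% of the genes with at least 1000 reads had a lower ratio. PVALB is among the genes that the study picked from these libraries, so its direction is not independent evidence. All 6 regions were below 0, and the intervals of 4 lay below 0. The region from 10965107 to 10965686, 7.90 kb inside the gene, had 299 and 83 reads (-1.28, -1.65 to -0.93). A second region past 2-fold, from 10945704 to 10946013, lies 7.70 kb beyond the lower end and had 97 and 30 reads (-1.11, -1.77 to -0.53). Between them, the region over the lower end, from 10953323 to 10953754, had 270 and 99 reads (-0.88, -1.23 to -0.55), and the most reads, 328 and 162, lay from 10948769 to 10949264 (-0.45, -0.73 to -0.18). The annotation places all 6 midpoints inside NCF4 too, which spans this locus, so the regions cannot be given to PVALB alone.

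The strongest region near an end of each gene, a comparison chosen after values had been seen, had a ratio whose interval included 0 in 8 of the 10 genes, against 68% of the 14380 genes with such a region. Within 2 kb of an end, the strongest regions of CACNA1S, CACNG1, STAC3, RYR1, JPH1, CASQ1, SLN and PVALB had intervals that included 0, and those of TRDN, at -0.49 (-0.72 to -0.26), and ATP2A1, at -0.31 in RABEP2, did not. At PVALB this was the region from 10954429 to 10954857, with 245 and 135 reads (-0.29, -0.61 to 0.013), while its neighbour over the lower end, nearly as strong, was at -0.88. Over all 42 tested regions within 2 kb of an end, the median ratio was -0.23, and 0 were past 2-fold. Over the 273 interior regions it was -0.45, and 31 were past 2-fold, or 11.4% against 5.87% of all interior regions. TRDN, which itself showed no such difference, held most of the interior regions and all but 8 of the 31. Without it 8 of 126 interior regions were past 2-fold, or 6.35%, which is near the background, and the medians were -0.17 near ends and -0.26 in the interior. Over all genes the corresponding medians were 0.015 near ends and -0.042 in the interior. Within single genes, the interval of the difference between interior and end excluded 0 for RYR1, for PVALB at -0.71 (-1.15 to -0.28), where the interior is 1 region, and for CACNA1S at -0.16 (-0.30 to -0.022). For the other 7 genes it included 0, with values from -0.28 at STAC3, whose interior is also 1 region, to 0.12 at SLN. Over 5612 genes with at least 200 reads in each zone the median difference was -0.11, and 65.3% were below 0. Of the 9 members among them 5 were below 0, and their median was -0.065. The difference of CACNA1S lay within the quartiles of these genes, -0.31 and 0.075. How many of them had an interval that excluded 0 was not counted.

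The weak regions of these genes leaned to Duroc most, whereas all weak regions together leaned slightly to Luchuan. Member regions with 20 to 99 reads in both breeds together had a median ratio of -0.68 over 93 regions, and all regions of this class had 0.065 over 67655. With 100 to 299 reads the medians were -0.39 over 157 and -0.11 over 38244 regions, and with 300 or more they were -0.22 over 107 and -0.019 over 31798. TRDN held 77 of the 93 weakest regions. Without it the medians were -0.67, -0.27 and -0.21 in these classes, the first over 16 regions. The order of the classes was therefore the same with and without TRDN, but the lowest class then rests on few regions. The sets also differed in the breed of the peak call, and the classes of reads were not split by it. Peaks of Luchuan alone were 24872 of all 137697 regions, with a median ratio of 0.75. Among the 357 member regions they were 41, with a median of -0.28.

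**Figure D5:**
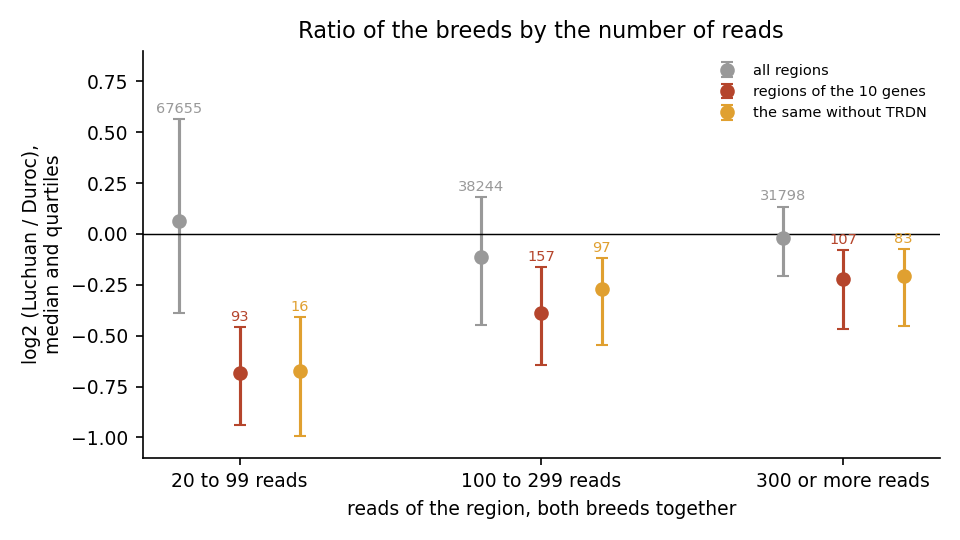
Points are medians and bars quartiles of the log2 ratio of Luchuan to Duroc in 3 classes of reads per region, for all regions (grey), the regions of the 10 genes (red) and the same without TRDN (yellow), with the number of regions above each bar. In the weakest class all regions are at 0.065 and those of the 10 genes at -0.68.

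The breed in which a peak was called did not always match the reads. Of the 357 regions, 157 were peaks of Duroc alone and 155 of these had ratios below 0, or 98.7% against 78.6% of all peaks of Duroc alone. Among the 41 peaks of Luchuan alone, 31 were also below 0, so that 75.6% had the higher scaled value in the other breed, against 8.68% of all peaks of Luchuan alone. These 41 regions had medians of 71 Duroc and 46 Luchuan reads, whereas all 24872 such regions had 18 and 21. Without TRDN the share was 20 of 30, or 66.7%. By contrast, the 159 regions called in both breeds had a median ratio of -0.24, and 135 of them, or 84.9%, were below 0, against 50% of all such regions, whose median was set to 0 by the scaling.

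Close relatives of 6 of the 10 genes were among 40 further genes of calcium handling that had been listed for comparison, and the pairs were set side by side after their values had been seen. RYR3, a ryanodine receptor with little expression in adult muscle, was at 0.065 (0.0087 to 0.12), above RYR1 by 0.38 on the log2 scale. The interval of the difference of RYR1 from RYR3 was -0.45 to -0.31. ATP2A1 was at -0.28 and ATP2A2, the pump of slow fibers and heart, at -0.12, a difference of -0.15 (-0.24 to -0.062). SLN was at -0.17 and phospholamban, PLN, which inhibits the pump in heart and slow muscle, at 0.062, a difference of -0.23 (-0.36 to -0.10). CASQ1 differed from CASQ2, its cardiac and slow relative, by -0.35 (-0.48 to -0.22), but without the regions inside PEA15 and LOC100157711 the difference was -0.081 (-0.22 to 0.058). In 2 pairs the order was the opposite. JPH1 was at -0.075 and JPH2 at -0.26, a difference of 0.18 (0.12 to 0.25), and CACNG1 was above CACNG6 by 0.45 (0.34 to 0.57).

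The 40 further genes leaned the same way less far. All had at least 100 reads, and 33 were below 0, or 82.5% against 52.4% of all genes. Intervals lay below 0 for 23, or 57.5% against 26.6%. Such intervals narrow as reads rise, and the 40 genes had a median of 4299 reads against 1813.5 over all genes. The median ratio was -0.099, between the -0.30 of the 10 genes and the -0.012 of all genes. None of the 40 differed by 1.5-fold in either direction, where the background was 2.64% higher in Duroc and 2.37% higher in Luchuan. The extremes, named after their values had been seen, were CACNG6 at -0.46 (-0.54 to -0.38) and STIM1, the calcium sensor of the reticulum, at 0.11 (0.061 to 0.15).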

How the data were processed

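Reads of 3 Duroc and 3 Luchuan ATAC-seq libraries were filtered by the authors with Trimmomatic (version 0.36), aligned to Sscrofa11.1 with Bowtie2 and used for peak detection with MACS2. Removal of duplicates, a shift for the transposase and pooling of boars are not given in the sources used here. Counts of reads in each peak interval, whole and not normalized, were deposited in 1 column per breed and were read as pooled over the boars. The other 3 columns of the table, the authors' own rescaled ratio, average signal and p-value, were not used.

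From the counts, intervals called in both breeds were merged where they overlapped or adjoined, the longest interval stood for each region, and starts were counted from 1. Log2 ratios used a pseudocount of 0.5 and were centred on the median of the regions called in both breeds. Gene bodies were those of RefSeq on Sscrofa11.1 (19550 protein-coding genes), in a table that gives no strand, exons or sequence, so ends are named by coordinate and no sequence is shown. All 10 symbols matched. With 1 count per breed no test was made. For the same reason the intervals cover counting error only. Reads carry no molecular identifiers and removal of duplicates is not stated, so any duplicated reads would make the intervals too narrow. Sums over a gene's window may count reads of neighbouring genes.

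Regions described singly are those with the most reads, those nearest to a gene end and those with at least 50 reads and a ratio of 2-fold or more, at most 3 of these per gene. Further genes of the pathway were to be named from 1.5-fold on. The genes, lists and rules were chosen with earlier results of these data known. The scaling, intervals and 2-fold calls were tested on simulated counts. These were Poisson draws without variation between boars, duplicates or peak calling. They therefore checked the calculation, and cannot show how well the intervals suit these data. The work used SciPy 1.17.1, pandas 2.3.3 and NumPy 2.4.6 under Python 3.11.15, with Matplotlib 3.10.9 for plots. Alternatives covered the scaling, the window, the merging, the minimum of reads, the pseudocount, the threshold and regions inside other genes.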

Additional observations from a re-analysis of the deposited data

How the results depend on the processing

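With the breeds scaled to the clean reads of the libraries, every log2 ratio, that of all regions included, was lower by 0.20, 67 member regions were past 2-fold in Duroc (18.8% against 8.88% of all regions), and the median of the 10 genes was -0.49. With a scaling factor that changed with the signal of a region, 50 were past 2-fold (14% against 7.2%), and the median of the 10 genes was -0.30. With a minimum of 100 reads 16 were (6.06% against 4.72%, near the background), and without TRDN, an alternative chosen after seeing the data, 11. Past 1.5-fold were 117 (32.8% against 14.8%). The median of the 10 genes was -0.21 with gene bodies and 2 kb, -0.23 with gene bodies alone and -0.14 without regions inside other genes, where PVALB had no region left. In none of the settings tried was a member region higher in Luchuan by 2-fold, or by 1.5-fold where that was tried. Over the alternatives, 8 genes stayed below 0 in each that gave them a value, while CACNG1 was below 0 in 5 of 10 and STAC3 in 8 of 10. No paired analysis was possible because the table has 1 column per breed, and for the same reason no boar could be left out. Intervals of 201 member regions included 0, so their differences were not detectable at this depth.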

Other observations

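Some of the 40 further genes of calcium handling, named after their values had been seen, had ratios as follows. At the surface membrane, the sodium channel gene SCN4A was at a log2 ratio of -0.23 (-0.29 to -0.17) and the chloride channel gene CLCN1 at -0.22 (-0.31 to -0.12). MCU, the mitochondrial calcium uniporter, was at -0.089, and MICU2, a regulator of it, at -0.18. CALM3, which encodes calmodulin, was at -0.39 (-0.51 to -0.28). HRC, a calcium-binding protein of the reticulum, was at -0.37 (-0.46 to -0.28). All of these values have 1 count per breed.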
